A study of Homo sapiens with 8 samples.

Results

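The 10 genes described here encode 6 metallothioneins (MT1E, MT1F, MT1G, MT1M, MT1X and MT2A) and 4 zinc transporters (SLC30A1, SLC39A8, SLC39A14 and SLC39A4). They are 10 of the 28520 rows in the authors' table of each cell line, and each matched exactly 1 row by its symbol. They were chosen by symbol with their FPKM in the 8 libraries already known, FPKM being sequenced fragments per kilobase of a transcript, divided by the fragments mapped in its library. Their levels and their differences are therefore given as a description, and no p-value of the present fit is given for any of them.

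RNA-seq had been performed on Panc05.04, Panc10.05, Panc8 and HPAF-II, which are established human lines of pancreatic ductal adenocarcinoma (PDA). The dot that the titles put behind Panc is left out. In the control siRNA group, cells of each line carried a control small interfering RNA, and in the PDX1 siRNA group one directed at PDX1, a homeodomain factor needed for the developing pancreas. All cells were collected on day 3 after transfection, and each line gave 1 library per treatment. The lines are thus the replicates of the treatment, and a difference within a line rests on 1 library against 1 library.

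Metallothioneins are small cysteine-rich cytosolic proteins that bind zinc and copper, and their genes are induced by metals through MTF1, a zinc-sensing transcription factor that binds metal response elements. Zinc enters the cytosol through ZIP proteins (the SLC39 family) and leaves it through ZnT proteins (the SLC30 family). SLC30A1, which exports zinc across the plasma membrane, is itself a target of MTF1, and SLC39A4 has been studied as a zinc importer raised in pancreatic cancer.

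PDX1 was lower with its siRNA in each line. It was at 1.41 and 0.416 FPKM in Panc05.04, control first, at 0.188 and 0.0998 in Panc10.05, at 0.914 and 0.372 in Panc8, and at 9.61 and 5.37 in HPAF-II. On log2(FPKM + 1) the mean ratio came to -0.52 ± 0.30 (SD, n = 4 lines), with p = 0.13 by two-sided exact permutation of the signs, the smallest that 4 pairs allow. Summed FPKM per library lay between 371329 and 428778, and 11186 to 11477 rows reached 1 FPKM. Ductal epithelial markers summed to between 733 and 5962 FPKM. In the libraries labelled Panc05.04, however, KRT19 was at 1.55 and 0.921 FPKM, KRT7 at 0.868 and 0.709 and CDH1 at 1.40 and 2.12, control first, while KRT8 reached 305 and 394. KRT19 was between 1094 and 2107 FPKM in the other 6 libraries. Spans and correlations of the 10 genes and likeness rankings that rest on Panc05.04 are therefore also given without it, and so are their mean ratios where that moves them by over 1.5 times. Of the acinar markers, PRSS1, CPA1 and CELA3A were listed at 0 in all 8 libraries and CPB1 reached at most 0.0673 FPKM, and the islet markers GCG, SST and CHGA were listed at 0. Fibroblast markers summed to 0.631 to 5.40 FPKM, endothelial markers to 0.0538 to 0.809 and leukocyte markers to 8.95 to 93.0, the latter mostly CD68, with PTPRC at 0.0116 FPKM or less.

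The 6 metallothionein genes lie within 75.6 kb of chromosome 16 (hg38), in the order MT2A (56608566 to 56609497), MT1E (56625673 to 56627113), MT1M (56632622 to 56633986), MT1F (56657943 to 56659303), MT1G (56666735 to 56668065) and MT1X (56682470 to 56684196). They are close copies, and this bears on how far their values can be separated. Coding sequences of MT2A and of the other 2 abundant members are shown here from GENCODE 29 (GRCh38), each 186 bases over spliced exons, with capitals at the bases that differ from MT2A.
MT2A: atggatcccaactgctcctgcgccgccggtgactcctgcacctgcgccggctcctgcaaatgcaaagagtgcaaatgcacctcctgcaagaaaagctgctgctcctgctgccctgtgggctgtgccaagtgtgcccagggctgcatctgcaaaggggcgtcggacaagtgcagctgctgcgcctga
MT1E: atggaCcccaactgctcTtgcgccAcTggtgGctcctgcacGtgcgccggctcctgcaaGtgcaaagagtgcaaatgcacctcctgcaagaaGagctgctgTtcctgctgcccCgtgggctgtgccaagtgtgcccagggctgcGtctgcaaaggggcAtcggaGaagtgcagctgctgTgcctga
MT1X: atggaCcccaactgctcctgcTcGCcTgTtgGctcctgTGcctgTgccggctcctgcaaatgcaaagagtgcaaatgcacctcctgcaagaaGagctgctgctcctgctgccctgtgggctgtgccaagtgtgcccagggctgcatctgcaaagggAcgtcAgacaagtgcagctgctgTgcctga
MT1E and MT1X each differed from MT2A at 14 positions, an identity of 92.5%. Over the 15 pairs of the 6 members, coding identity ran from 88.7% to 95.2%, the highest for MT1G and MT2A. The longest stretch shared by annotated transcripts was between 32 and 96 bases per pair, the longest for MT1G and MT1X. Reads inside such stretches could have been given to either copy. How the authors' counting shared them is not given in the sources used here, so the split among single metallothioneins is uncertain. Their summed FPKM carries part of that uncertainty, since FPKM divides by transcript length and annotated lengths ran from 406 bases (MT1G) to 829 (MT1M).

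RefSeq promoter windows (GRCh38.p14, the 250 bases before the annotated start) were at hand for 4 of the 10 genes, MT2A, MT1X, SLC30A1 and SLC39A8. They were searched on both strands for the core letters of the metal response element, TGCGCNC or TGCACNC, which never overlapped one another. The windows of 2 abundant metallothioneins and of the exporter are shown, to set windows with several matches beside one with 1. Capitals mark the core letters, which read GNGCGCA or GNGTGCA when they lie on the opposite strand.
MT2A, chr16:56608334-56608583, plus strand: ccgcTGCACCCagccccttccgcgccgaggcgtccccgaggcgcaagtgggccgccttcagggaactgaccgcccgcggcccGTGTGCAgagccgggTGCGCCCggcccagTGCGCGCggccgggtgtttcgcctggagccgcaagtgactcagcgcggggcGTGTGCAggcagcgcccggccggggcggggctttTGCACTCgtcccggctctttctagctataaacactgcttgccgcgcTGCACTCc
MT1X, chr16:56682220-56682469, plus strand: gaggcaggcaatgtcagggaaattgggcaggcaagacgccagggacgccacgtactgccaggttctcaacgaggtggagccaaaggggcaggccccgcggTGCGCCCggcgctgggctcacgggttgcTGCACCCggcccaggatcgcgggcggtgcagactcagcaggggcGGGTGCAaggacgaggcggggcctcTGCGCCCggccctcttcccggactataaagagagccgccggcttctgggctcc
SLC30A1, chr1:211579162-211579411, minus strand: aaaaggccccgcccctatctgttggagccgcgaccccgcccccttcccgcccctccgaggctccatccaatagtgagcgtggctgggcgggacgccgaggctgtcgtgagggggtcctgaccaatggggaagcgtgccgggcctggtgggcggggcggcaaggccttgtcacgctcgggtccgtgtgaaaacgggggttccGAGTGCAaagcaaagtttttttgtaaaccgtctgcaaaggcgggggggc
The MT2A window held 7 matches, from 246 to 8 bases before the start, and 0.0313% of the 35116 windows in the RefSeq table held at least as many. The MT1X window held 4 matches, between 150 and 53 bases before the start, and 0.370% of windows held at least as many. In the SLC30A1 window there was 1 match, on the opposite strand 49 bases before the start, a number reached by 24.8% of windows. The SLC30A1 row of the authors ended at 211578757 (hg38), apart from this window, while the MT2A and MT1X windows met or overlapped their rows. SLC39A8 had 3 annotated windows, with 0, 0 and 1 match. Outside the 10 genes, the MT1B window held 3 matches, a number reached by 1.58% of windows, and the MT1B row was listed at 0 in all 8 libraries. The MT1H window held 8 matches, and the MT1H row was listed at 0 in 7 libraries and at 0.811 FPKM in the Panc8 control.

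MT2A was the most abundant of the 10 genes in 6 of the 8 libraries, and in both HPAF-II libraries the importer SLC39A4 and the exporter SLC30A1 stood higher. It was at 6499 FPKM with control siRNA and 6274 with PDX1 siRNA in Panc05.04, at 782 and 431 in Panc10.05, at 306 and 841 in Panc8, and at 27.2 and 31.8 in HPAF-II. Both Panc05.04 libraries had MT2A as the highest of all 28520 rows. The Panc10.05 and Panc8 values overlapped, and HPAF-II lay apart below all others. On the log2 scale the line means spanned 7.72, and 44 of the 12110 genes with a mean of at least 1 FPKM (0.363%) spanned as much. Without Panc05.04 the span was 4.26, and 2.62% of the genes spanned as much. No label says that the 4 tables share a scaling, and levels set across lines carry that limit. In bulk RNA, fewer expressing cells and less RNA per cell cannot be told apart.

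MT1E, a neighbour of MT2A in the cluster, had the same highest and lowest line. Its FPKM was 1163 and 813 in Panc05.04, 133 and 71.3 in Panc10.05, 101 and 137 in Panc8, and 0.684 and 0.231 in HPAF-II, control first here and in what follows. The HPAF-II values were both below 1 FPKM, while the 6 other libraries were at 71.3 FPKM or more. Between lines MT1E spanned 9.40 on the log2 scale, and 6.36 without Panc05.04. The MT1E and MT2A levels had a Pearson r of 0.98 on log2(FPKM + 1) over the 8 libraries and 0.98 over the 6 without Panc05.04, points that share lines in pairs.

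MT1X was ordered differently. Its FPKM was 148 and 83.5 in Panc05.04, 8.69 and 4.77 in Panc10.05, 141 and 116 in Panc8, and 18.4 and 35.1 in HPAF-II. Panc8 and Panc05.04 overlapped at the top and Panc10.05 was lowest, a line where MT2A reached 782 FPKM. The r between MT1X and MT2A over the 8 libraries was 0.40, and 0.03 over the 6 without Panc05.04. MT2A stood at 2.17 and 7.25 times MT1X in Panc8 and at 1.48 and 0.905 times in HPAF-II. In Panc05.04 that ratio of FPKM was 43.8 and 75.1, and in Panc10.05 it was 89.9 and 90.4.

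The other 3 metallothioneins had lower mean levels. MT1F was at 66.6 and 26.4 FPKM in Panc05.04, 4.67 and 8.40 in Panc10.05, 2.97 and 5.21 in Panc8, and 1.997 and 1.69 in HPAF-II. It was thus highest in Panc05.04, and the Panc8 and Panc10.05 values overlapped. In the Panc10.05 PDX1 siRNA library MT1F stood above MT1X, at 8.40 against 4.77 FPKM. MT1G was at 1.84 and 3.59 FPKM in Panc8 and listed at 0 in the other 6 libraries. MT1M was at 4.48 and 5.07 FPKM in Panc8 and at 0.260 and 0.301 in Panc05.04, and it was listed at 0 in HPAF-II and Panc10.05. Panc8 was the line in which all 6 metallothioneins reached 1 FPKM in both libraries, against 4 in Panc05.04, 4 in Panc10.05 and 3 in HPAF-II.

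**Figure D1:**
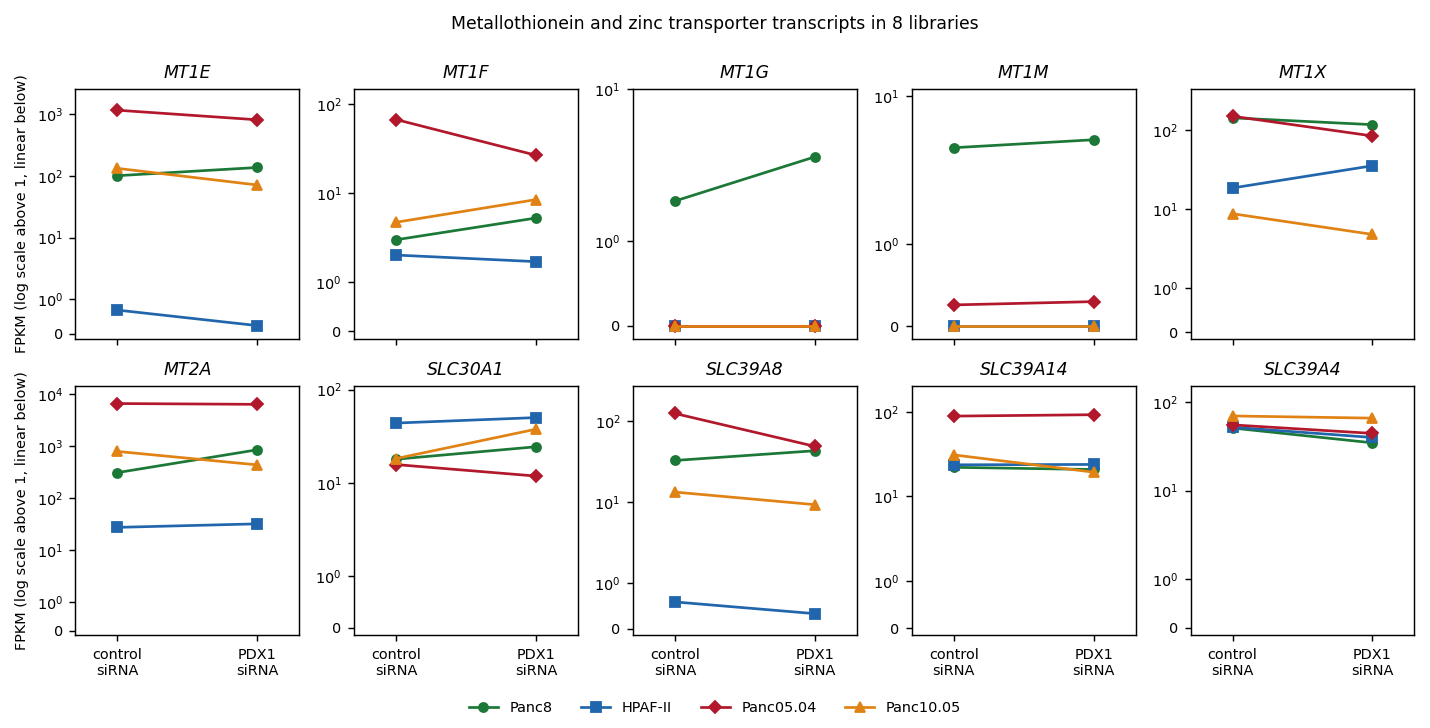
FPKM of the 10 genes (vertical axis, log scale above 1 and linear below) in the control siRNA and PDX1 siRNA library of each cell line, 1 point per library, with a line joining the libraries of a cell line. MT2A, MT1E and SLC39A8 are highest in Panc05.04 and lowest in HPAF-II, SLC30A1 is highest in HPAF-II (43.8 and 50.1 FPKM), and SLC39A4 stays between 34.7 and 69.9 FPKM.

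Summed over the 6 genes, metallothionein FPKM was 7877 and 7197 in Panc05.04, 928 and 515 in Panc10.05, 558 and 1107 in Panc8, and 48.2 and 68.7 in HPAF-II. These sums were 2.08% and 1.94% of all FPKM in Panc05.04 and 0.0121% and 0.0174% in HPAF-II. In Panc05.04, 82.5% and 87.2% of the sum came from MT2A, and in Panc10.05 its share was 84.3% and 83.6%. Its share was smaller in Panc8, 54.9% and 75.9%, and in HPAF-II, 56.3% and 46.2%. MT1X supplied most of the remainder in HPAF-II, with 38.1% and 51.0% of the sum. MT1E supplied 18.1% and 12.4% in Panc8 and between 11.3% and 14.8% in the libraries of Panc05.04 and Panc10.05.

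**Figure D2:**
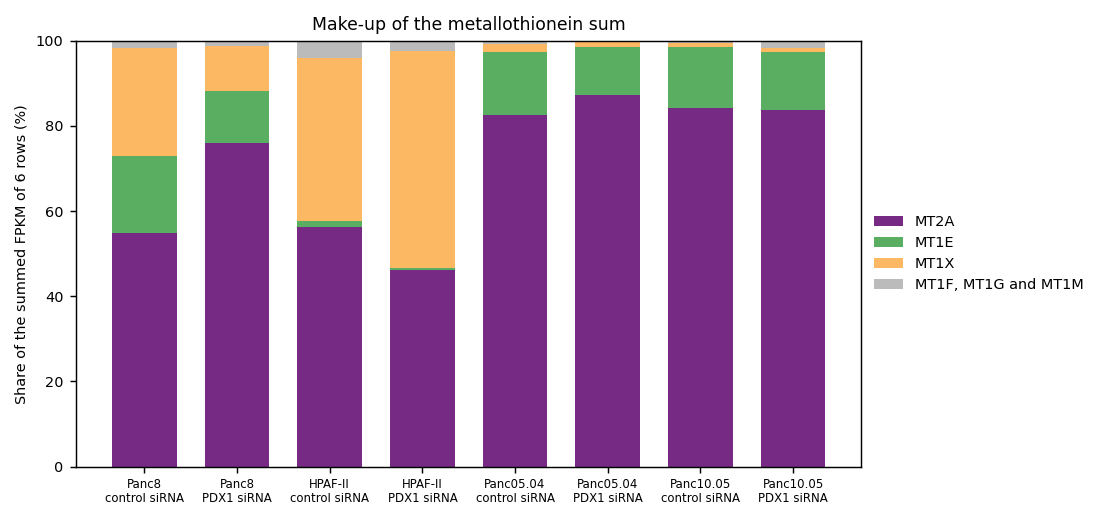
Share of the summed metallothionein FPKM (vertical axis, percent) taken by MT2A, MT1E, MT1X and the other 3 members together, 1 bar per library. MT1X takes 38.1% and 51.0% in the HPAF-II bars and at most 1.88% in the bars of Panc05.04 and Panc10.05, where MT2A takes 82.5% to 87.2%.

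Of 10 further metallothionein genes and pseudogenes, none reached a mean of 1 FPKM. MT1A, MT1B, MT1HL1, MT1IP, MT3 (the brain metallothionein) and MT4 (that of stratified epithelia) were listed at 0 in all 8 libraries. The pseudogene MT1DP was highest in Panc05.04, with 1.54 and 2.54 FPKM, and was listed at 0 in HPAF-II. MT1L and MT1JP did not pass 0.284 and 0.287 FPKM. Over these 16 metallothionein rows, 48 of 128 values were above 0 and the smallest was 0.231 FPKM. A listed 0 in these short transcripts is thus not a measured absence.

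**Figure D3:**
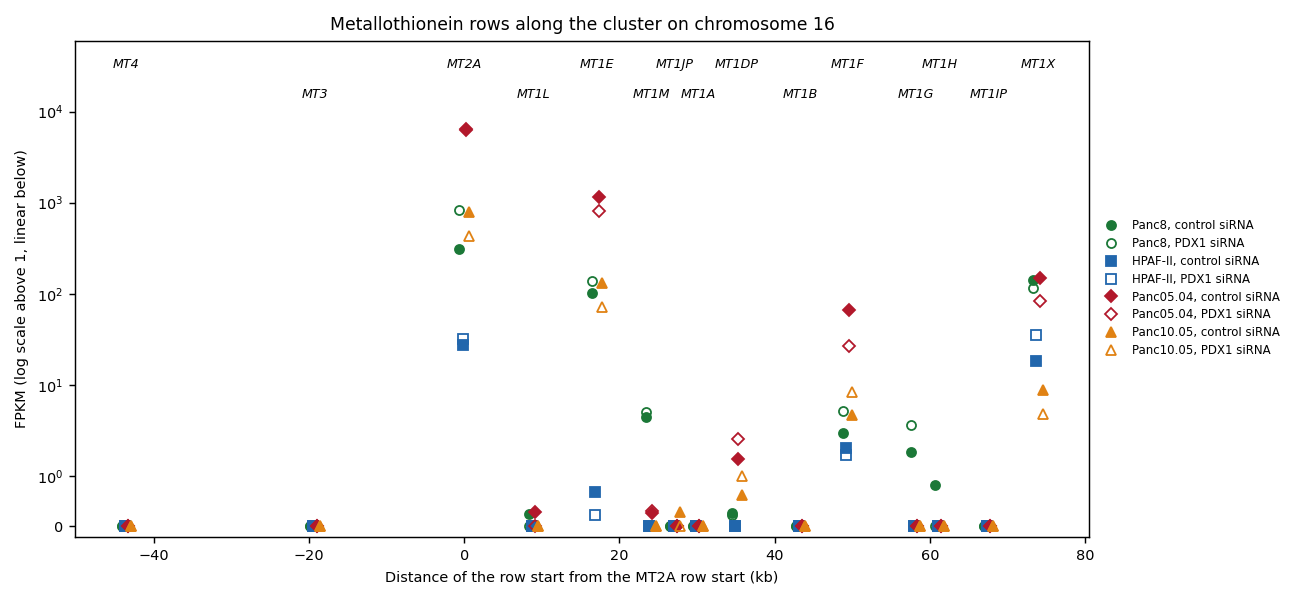
FPKM of 15 metallothionein rows (vertical axis, log scale above 1 and linear below) against the distance of the row start from that of MT2A in kb, with 1 marker per library, filled for control siRNA and open for PDX1 siRNA. MT2A, MT1E, MT1F and MT1X carry nearly all of the signal, MT1M and MT1G are above 1 FPKM in Panc8, and the other rows stay at or below 2.54 FPKM.

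Genes that flank the cluster were examined after the metallothionein values were seen. Within 500 kb, 9 genes had a mean of at least 1 FPKM, and 7 of them were highest in Panc05.04 and 5 lowest in HPAF-II. Their spans between lines were smaller, 0.79 to 2.90 on the log2 scale with a median of 1.53, against 7.72 for MT2A. HERPUD1, a stress-response gene of the endoplasmic reticulum, was at 91.1 and 93.2 FPKM in Panc05.04 and at 30.1 and 30.8 in HPAF-II. Its lowest line was Panc8, at 23.6 and 23.8 FPKM. BBS2 was highest in HPAF-II, and NLRC5 was highest in Panc10.05 and lowest in Panc05.04. Among all tested genes, 24.7% were highest in Panc05.04 and 28.4% lowest in HPAF-II.

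SLC30A1 (chromosome 1, 211575039 to 211578757), the exporter, was highest in the line where MT2A was lowest, and lowest where MT2A was highest. Its FPKM was 15.7 and 11.8 in Panc05.04, 18.2 and 37.6 in Panc10.05, 17.9 and 24.4 in Panc8, and 43.8 and 50.1 in HPAF-II. HPAF-II and Panc05.04 each lay apart from the next line in the order, while Panc10.05 and Panc8 overlapped. The r between SLC30A1 and MT2A was -0.88 over the 8 libraries and -0.78 over the 6 without Panc05.04. The span of SLC30A1 between lines was 1.71 on the log2 scale, and 1.13 without Panc05.04, against a median of 1.23 and 0.94 over all tested genes.

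SLC39A8 (chromosome 4, 102251041 to 102345498), or ZIP8, carries zinc, manganese and cadmium into cells. Its FPKM was 124 and 48.9 in Panc05.04, 13.4 and 9.35 in Panc10.05, 32.8 and 43.2 in Panc8, and 0.590 and 0.330 in HPAF-II. No line overlapped another, and the order of the highest and the lowest line was that of MT2A and MT1E. Its span was 5.77 on the log2 scale, reached by 1.60% of tested genes, and 4.73 without Panc05.04, reached by 1.86%. The r with MT2A was 0.92 over the 8 libraries and 0.91 without Panc05.04, and that with SLC30A1 was -0.87 and -0.85. These points too share lines in pairs.

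SLC39A14, or ZIP14, a carrier of zinc, iron and manganese encoded on chromosome 8, was at 89.0 and 92.4 FPKM in Panc05.04, 31.0 and 19.4 in Panc10.05, 22.1 and 20.8 in Panc8, and 23.7 and 23.9 in HPAF-II. Panc05.04 stood apart, and the other 3 lines spanned 0.19 on the log2 scale, while 96.6% of tested genes spanned as much or more over those lines. SLC39A4, or ZIP4, also on chromosome 8, is the importer whose loss causes the zinc deficiency acrodermatitis enteropathica. It was at 55.4 and 44.4 FPKM in Panc05.04, 69.9 and 66.0 in Panc10.05, 51.0 and 34.7 in Panc8, and 52.1 and 39.9 in HPAF-II. Panc10.05 was highest and the other 3 lines overlapped. Its span of 0.68 was the smallest of the 10 genes with all 4 lines, and 82.4% of tested genes spanned as much or more.

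Across lines, PDX1 siRNA went with no common direction for most of the 10 genes. In limma with the line as a block, 0 of all 12110 genes with a mean of at least 1 FPKM (0%) were called at an adjusted p of 0.05, and 440 had an unadjusted p under 0.05. The fit held 9 of the members, MT1G having a lower mean, and nothing is read from it for them. The mean log2 ratio of PDX1 siRNA over control was 0.19 ± 0.96 for MT2A, -0.35 ± 0.56 for MT1E, -0.24 ± 0.79 for MT1X and -0.02 ± 0.94 for MT1F (SD, n = 4 lines, on FPKM + 1). In each of these 4 genes the lines differed in sign, and single lines decided the means. MT2A was at -0.23 without Panc8 and 0.54 without Panc10.05. MT1E was at -0.62 without Panc8 and -0.18 without Panc10.05. MT1X was at -0.62 without HPAF-II, -0.05 without Panc05.04 and -0.07 without Panc10.05. MT1F was at 0.41 without Panc05.04, 0.02 without HPAF-II, -0.24 without Panc8 and -0.27 without Panc10.05. The median of the mean ratios was -0.02 over the 5 metallothioneins in the fit and -0.25 over the 4 transporters, against 0.01 over all tested genes. Among the 5, MT1M passed the filter through Panc8 alone. It was at 0.301 FPKM or less in the other lines, so its ratios there lie near 0 by construction. The metallothionein median without Panc05.04, given next, is the mean ratio of MT1M itself. The metallothionein median has no stable sign, being -0.23 without Panc8, 0.02 without HPAF-II, 0.05 without Panc05.04 and -0.07 without Panc10.05. That of the transporters stayed between -0.27 and -0.18 with each line left out, but its sign also differed between lines. Taken line by line, the transporter median was 0.15 (Panc8), -0.28 (Panc10.05), -0.35 (Panc05.04) and -0.12 (HPAF-II). It pools the exporter SLC30A1, with a mean ratio of 0.31, and importers at -0.42 (SLC39A8), -0.33 (SLC39A4) and -0.17 (SLC39A14).

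SLC39A4 was the member with the same sign in every line. Its log2 ratio was -0.31 in Panc05.04, -0.08 in Panc10.05, -0.54 in Panc8 and -0.38 in HPAF-II, with a mean of -0.33 ± 0.19 (SD, n = 4). Of all tested genes, 13.2% had the same sign in the 4 lines. SLC30A1 was higher in 3 lines (0.42, 0.19 and 1.01 in Panc8, HPAF-II and Panc10.05) and lower in Panc05.04 (-0.38), with a mean of 0.31 ± 0.58. That mean was 0.54 without Panc05.04 and 0.08 without Panc10.05. SLC39A8 was lower in 3 lines and higher in Panc8 (0.39), with a mean of -0.42 ± 0.71. Without Panc05.04, where its ratio was -1.33, that mean was -0.11, and without Panc8 it was -0.69. SLC39A14 had a mean of -0.17 ± 0.33, which rested on Panc10.05 (-0.65) and was -0.0044 without it.

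**Figure D4:**
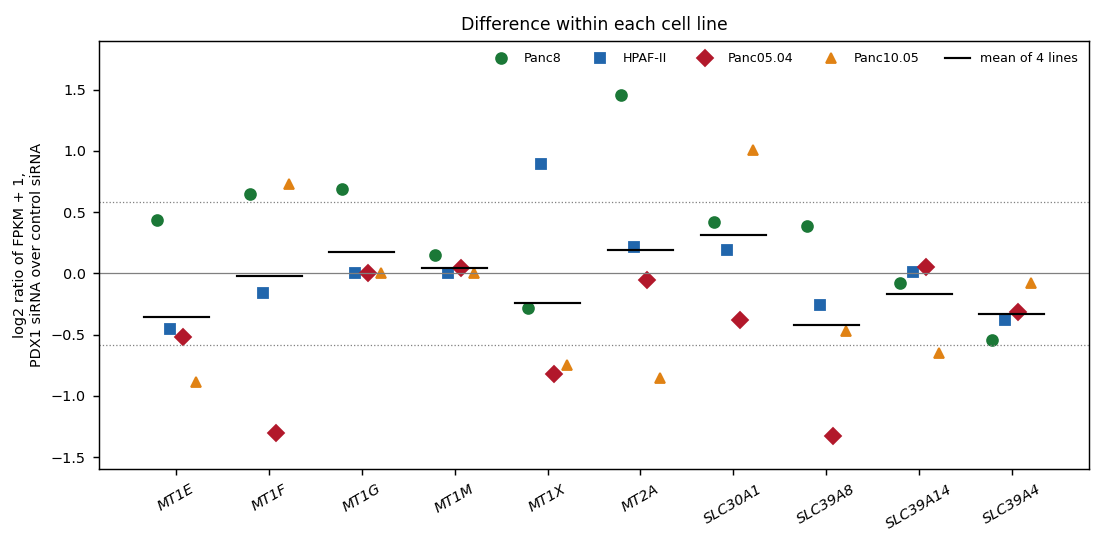
Log2 ratio of FPKM + 1, PDX1 siRNA over control siRNA (vertical axis), for each of the 10 genes, 1 point per cell line with the mean of the 4 lines as a bar and dotted lines at 1.5-fold. MT2A runs from 1.45 in Panc8 to -0.86 in Panc10.05, and SLC39A4 is the gene with all 4 points below 0.

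Within lines, members at least 1.5-fold apart on FPKM + 1 are set beside the share of all rows past the same size, since the members were chosen with these values known. In Panc8, MT2A, MT1F and MT1G were higher with PDX1 siRNA and 0 members lower, where 3.59% of rows were higher and 1.27% lower. MT2A, at 306 and 841 FPKM, had a log2 ratio of 1.45, larger in size there than that of 98.9% of the 12110 genes with a mean of at least 1 FPKM over all libraries. In the authors' deposited table it had q = 0.00605, at a threshold of 0.05 that 0.977% of the rows tested there passed. MT1X did not follow, with a log2 ratio of -0.28. Without MT2A, the summed metallothionein FPKM of Panc8 was 1.06 times that of the control, and 1.99 times with it. In the same pair of libraries the interferon-induced genes IFI6, IFIT1, MX1 and RSAD2 went from 289.6 to 3398, from 13.9 to 214, from 11.3 to 146 and from 1.46 to 38.3 FPKM. All 10 genes of the interferon-induced list were higher there. Their part in the MT2A value was not tested.

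In HPAF-II, MT1X was higher (18.4 and 35.1 FPKM, log2 ratio 0.90) and 0 members were lower, beside 0.743% and 0.585% of rows. The authors' deposited table gave MT1X p = 0.0129 and q = 0.999, and called 0 rows of this line (0%). MT2A had a log2 ratio of 0.22 and MT1E -0.45, the latter from values under 1 FPKM. The metallothionein sum was 1.42 times that of the control, and 1.76 times without MT2A.

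In Panc05.04, MT1F, MT1X and SLC39A8 were lower and 0 members were higher, beside 2.35% and 1.61% of rows. MT1F went from 66.6 to 26.4 FPKM (log2 ratio -1.30), MT1X from 148 to 83.5 (-0.82) and SLC39A8 from 124 to 48.9 (-1.33). The authors' deposited table called SLC39A8 at q = 0.0209 in a line where 0.264% of the rows tested passed, and it gave MT1F q = 0.298. MT2A, at 6499 and 6274 FPKM, had a log2 ratio of -0.05. The metallothionein sum was 0.914 times that of the control, and 0.670 times without MT2A.

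In Panc10.05, MT1F and SLC30A1 were higher and MT1E, MT1X, MT2A and SLC39A14 lower, in the line with the widest log2 ratios over all rows (SD 0.49), where 10.2% of rows were higher and 8.28% lower. MT2A had a log2 ratio of -0.86, MT1E -0.89, MT1X -0.75 and SLC39A14 -0.65, while MT1F had 0.73 and SLC30A1 1.01. The authors' deposited table called 0 members here, with 0.113% of the rows tested passing. The metallothionein sum was 0.555 times that of the control, and 0.578 times without MT2A.

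No gene of the wider zinc transporter families passed the test across lines, where 0 of all 12110 genes tested (0%) passed. That 0 genes of a list passed, here or below, therefore says nothing about that list. Of 9 other ZnT genes, 5 were tested and 0 passed in either direction (limma, smallest adjusted p = 0.898), with 3 mean ratios above 0 and 2 below and a median of 0.05. SLC30A5, which loads zinc into the secretory pathway, was at 0.08 ± 0.13 and SLC30A9 at 0.11 ± 0.09, SLC30A7 at 0.05 ± 0.13 and SLC30A4 at -0.09 ± 0.25 (SD, n = 4). SLC30A8, the zinc transporter of beta-cell granules, was listed at 0 in all libraries. SLC30A10 was seen in HPAF-II, at 0.836 and 0.815 FPKM, and SLC30A3 in Panc05.04, at 1.54 and 1.83 FPKM.

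Of 11 other ZIP genes, 7 were tested and 0 passed in either direction, with 3 mean ratios above 0, 4 below and a median of -0.02. SLC39A11 had the largest mean, 0.33 ± 0.44, with 15.1 and 30.7 FPKM in Panc10.05. SLC39A6 was higher in 4 of 4 lines, by 0.08 to 0.29, with a mean of 0.17 ± 0.11. SLC39A11 and the exporter SLC30A9 were also higher in all 4 lines, and SLC39A1 was lower in all 4. Of all tested genes, 13.2% had the same sign in the 4 lines. SLC39A10 had a mean of -0.15 ± 0.25, with 5.86 and 3.76 FPKM in Panc8. SLC39A1, the importer with the highest mean level, was between 84.4 and 177 FPKM with a mean ratio of -0.09 ± 0.10. All 6 rows of SLC39A7 were listed at 0, which can be a failed estimate of a gene placed several times in the assembly.

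**Figure D5:**
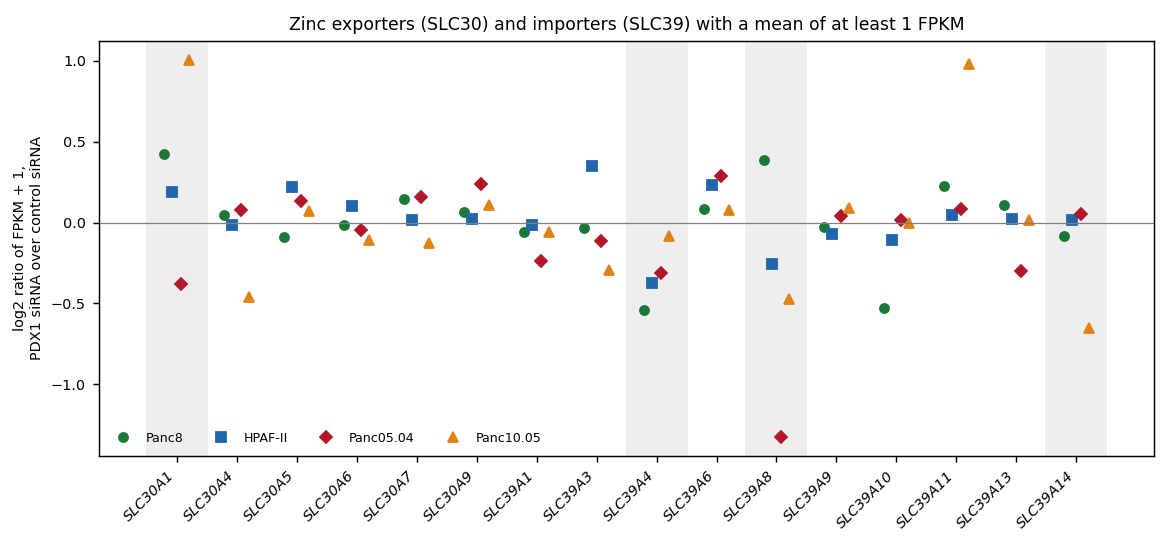
Log2 ratio of FPKM + 1, PDX1 siRNA over control siRNA (vertical axis), for the SLC30 exporters and SLC39 importers with a mean of at least 1 FPKM, 1 point per cell line, with the 4 genes described in full shaded grey. The points of SLC30A1, SLC39A8 and SLC39A11 spread most, reaching 1.01, -1.33 and 0.98. SLC39A6, SLC39A11 and SLC30A9 lie above 0 in all 4 lines, and SLC39A1 and SLC39A4 lie below 0 in all 4.

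The 7 metal-responsive regulators were all tested and 0 passed, with a median of -0.01. MTF1 was at 3.39 and 3.50 FPKM in Panc05.04, 4.23 and 3.67 in Panc10.05, 5.23 and 6.91 in Panc8, and 6.98 and 8.22 in HPAF-II. The line highest in metallothionein thus had the lowest control value of MTF1. MTF2 had a mean ratio of 0.09 ± 0.37, BACH1, a haem-sensing repressor, -0.10 ± 0.41, and NFE2L2, which drives antioxidant genes, -0.02 ± 0.14.

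Genes of other metals were likewise without a call, as were all 12110 genes tested (0%). All 10 copper handling genes were tested and 0 passed, with 8 mean ratios below 0 and a median of -0.07. SLC31A2, a relative of the copper importer, went from 10.5 to 4.46 FPKM in Panc10.05 (mean -0.17 ± 0.63), and COX17, COMMD1 and STEAP3 were at -0.12, -0.11 and -0.10 on average. Of 10 iron handling genes, 9 were tested and 0 passed, with a median of 0.02. ACO1, the cytosolic aconitase that senses iron, had a mean of -0.45 ± 0.73 and was at 22.2 and 6.98 FPKM in Panc8. The iron importer SLC11A2 was at 0.26 ± 0.40, and the ferritin chains FTH1 and FTL at -0.22 ± 0.50 and -0.22 ± 0.20.

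Metallothioneins are also induced by oxidants, glucocorticoids and cytokines, and lists of such genes were read beside them. Of 11 heat shock and oxidative stress genes, 9 were tested and 0 passed (median 0.03). HMOX1, the haem oxygenase, was at 80.3 and 194 FPKM in Panc05.04 and at most 24.6 in the other lines, with a mean ratio of 0.44 ± 0.56. Of 8 glucocorticoid-induced genes, 7 were tested and 0 passed (median 0.20), and SGK1 went from 3.08 to 13.1 FPKM in Panc10.05. Of 16 acute phase and STAT3 genes, 9 were tested and 0 passed (median 0.15). SAA1 had a mean ratio of 1.56 ± 0.80, SERPINA3 0.82 ± 1.10, LCN2 0.54 ± 1.28 and CP 0.41 ± 0.46. All 10 interferon-induced genes were tested and 0 passed, with a median of 0.87 and 10 mean ratios above 0.

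Genes whose level over the 8 libraries was most like the metallothionein sum were ranked by Pearson r on log2(FPKM + 1) among 8835 genes with a mean of at least 5 FPKM. They were SGMS1 and FAM169A (0.993 each), CFAP20 (0.989), TRAM2 (0.986), NQO2, PAPL and TMEM14C (0.985 each) and CGGBP1, IPO5 and BRD7 (0.984 each). NQO2, a quinone reductase, was at 34.4 and 34.0 FPKM in Panc05.04 and at 7.93 and 8.73 in HPAF-II. CFAP20 and BRD7 lie on chromosome 16, 2 of the 10 against 4.65% of the genes compared. Since each line gives 2 of the 8 points, the ranking mostly reflects 4 line levels. Over the 6 libraries without Panc05.04, 1 of these 10 genes, FAM169A, was again among the 10 most alike. The 10 genes still had an r of 0.959 to 0.989 there, where the last of the 10 most alike had 0.989. SLC30A1 was most alike HID1 (0.982), ANKRA2 (0.977), GSDMB (0.977), H2AFJ (0.973) and TMED4 (0.972) over the 8 libraries. Without Panc05.04, 1 of these 5, GSDMB, was again among the 5 most alike. The 5 genes still had an r of 0.960 to 0.988 there, where the last of the 5 most alike had 0.987.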

How the data were processed

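RNA-seq of 8 libraries was used, and the 10 genes and the lists read beside them were chosen with earlier results of these data known. TopHat2 (version 2), Cufflinks and Cuffdiff with genome build hg38 are named per the submitters' processing notes. What each tool did, the annotation, the strandedness and any scaling between tables is not given in the sources used here. Per the file headers, the authors deposited 1 table per line with an FPKM value for each library and Cuffdiff's p-value, q-value and test status, which compare 2 libraries and are quoted as the authors'.

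Rows were joined by row identifier. Ratios of PDX1 siRNA to control were formed within a table on log2(FPKM + 1), which understates changes of low genes. A mean of at least 1 FPKM over all libraries admitted a row to the fit by limma 3.58.1 under R 4.3.3 (line as a block, eBayes with trend, Benjamini-Hochberg adjustment, 3 residual degrees of freedom), a fit tested on simulated data. P-values measure the spread between lines. The labels pair the libraries by line, and the deviations of a line's libraries from their group means correlated at 0.939, 0.844, 0.916 and 0.963 in Panc05.04, Panc10.05, Panc8 and HPAF-II. Within a line, a row counted when its ratio reached 1.5-fold and it had 1 FPKM in either library. Total depth is unknown. Among low values the commonest spacing put the depth with PDX1 siRNA at a multiple of the control's between 0.627 (Panc8) and 1.43 (HPAF-II), an unsure estimate. Any pair of libraries had at most 0.0091% equal values above 1 FPKM. Where a symbol had several rows, as HSPA1A, HSPA1B and SLC39A7 do, the gene was left out of counts of lists.

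Named genes were the 10 members, PDX1, up to 4 genes per list with the largest mean ratio, the 10 genes most like the metallothionein sum and the 5 most like SLC30A1. Other list genes, the flanking genes and single values within a line were added after their values were seen. Promoter windows come from RefSeq (GRCh38.p14) and coding sequences from GENCODE 29. Proteins were not used here. Python 3.11.15, pandas 2.3.3, numpy 2.4.6, scipy 1.17.1 and matplotlib 3.10.9 did the rest. Alternatives were another pseudocount (0.1), no filter, median-centred ratios, no block, each line left out and a 2-fold threshold. The order of lines by treatment and the values without Panc05.04 were alternatives chosen after seeing the data.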

Additional observations from a re-analysis of the deposited data

Results flagged for a closer look

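Over the 10 genes, 30 sets of 4 values were examined (control levels, PDX1 siRNA levels and log2 ratios), and 7 held a value far from the other 3. Chance gives about 1 in 20 among independent sets, a rate that does not apply here, since the genes were chosen with these values known and the sets share lines. In Panc8, MT1G was at 1.84 FPKM with control siRNA and 3.59 with PDX1 siRNA, and the other lines were listed at 0, so its 3 sets, with the log2 ratio of 0.69, stand apart by construction. MT1M in Panc8 was at 4.48 and 5.07 FPKM, and the other lines reached 0.301 at most. The HPAF-II control stood apart for SLC30A1, at 43.8 FPKM, and the Panc05.04 PDX1 siRNA library for SLC39A14, at 92.4 FPKM.

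For 3 metallothioneins, lines differed in opposite directions under PDX1 siRNA, and these differences were not tested, since each line has 1 library per treatment. MT2A had a log2 ratio of 1.45 in Panc8 and -0.86 in Panc10.05, a difference of 2.31. MT1F had 0.73 in Panc10.05 and -1.30 in Panc05.04, a difference of 2.03. MT1X had 0.90 in HPAF-II and -0.82 in Panc05.04, a difference of 1.72.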

How the results depend on the processing

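Of 55 alternatives to results of a comparison, 51 moved a median by less than the spread between lines, left a count within 1.5 times or kept the direction of PDX1. Some of these 51 could not move by construction, such as counts of 0 at 1.5-fold read again at 2-fold. The tally is therefore not a measure of stability. The metallothionein median, -0.02, changed sign, to 0.02 with a pseudocount of 0.1 and 0.01 with no filter, and ran from -0.23 to 0.05 with single lines left out. The PDX1 mean ratio, -0.52, was -1.001 with a pseudocount of 0.1. At 2-fold in place of 1.5-fold, the members counted were 1 higher in Panc8, 0 higher in HPAF-II, 1 higher in Panc10.05 and 0 lower in Panc10.05, and 2 in place of 3 lower in Panc05.04, fewer because the threshold is stricter. The share of all rows past 2-fold is not given here, so nothing is read from these counts. The limma fit called 0 genes under every setting run, with adjusted p never below 0.775, and 219 to 631 genes at an unadjusted p under 0.05 under the settings that kept the block. With no replicate block it called 0 genes, 2 at an unadjusted p under 0.05, and the medians of the members were the same by construction. The sign of a mean log2 ratio changed for MT1F, to 0.02 with a pseudocount of 0.1, 0.02 without HPAF-II and 0.41 without Panc05.04, and for MT2A, to -0.23 without Panc8, and the cause was not tested. Members highest in Panc05.04 numbered 5, 6 by the control libraries alone and 5 by the PDX1 siRNA libraries alone. Of all tested genes, 24.7% were highest in that line by the mean of both treatments. Values under 1 FPKM, such as those of MT1E and SLC39A8 in HPAF-II, and rows listed at 0 are limited by a depth that is unknown.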
